A study of Homo sapiens with 4 samples.

Results

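BRD2, BRD3 and BRDT were examined in NB4-labelled cells with and without GNE-987. All 3 belong to the bromodomain and extraterminal (BET) family and were chosen by that membership, from 58735 genes measured. They are not the whole family, and other BET genes were not analysed here. NB4 is a human cell line from acute promyelocytic leukemia. GNE-987 is a chimeric degrader that joins a ligand of the BET bromodomains to a ligand of the VHL ubiquitin ligase. RNA sequencing was done on 2 libraries of NB4-labelled cells that their labels name as the control for GNE-987. The other 2 libraries were of NB4-labelled cells given GNE-987 at 25 nM for 24 h. Both groups carry the label of 1 cell line, and no vehicle is named in the control labels. Nothing states that the libraries of a group came from separate cultures, so the p-values measure the spread between these libraries, which may be technical.

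BET proteins carry a pair of bromodomains that bind acetylated lysines on histones, and an extraterminal domain that recruits other proteins. They bring elongation and chromatin factors to active promoters and enhancers, and leukemia cells are known to lean on them for the transcription of growth genes. BRD2 and BRD3 are transcribed in most tissues, whereas BRDT is the testis form, needed for the chromatin compaction of maturing sperm. A BET degrader acts on the proteins, which were not measured here. The values below are levels of messenger RNA.

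The 3 genes lie on different chromosomes (GRCh38, GENCODE release 44). BRD2 (ENSG00000204256) spans chr6:32968594-32981505 on the plus strand, within the HLA class II region, and its canonical transcript has 13 exons. BRD3 (ENSG00000169925) spans chr9:134030305-134068535 on the minus strand with 12 exons. BRDT (ENSG00000137948) spans chr1:91949343-92014426 on the plus strand with 19 exons. The 250 bases before the start of the canonical transcript, from RefSeq on GRCh38.p14, are shown for the expressed pair because the 2 genes moved in opposite directions in the deposited values. The BRD2 stretch, chr6:32968344-32968593, also covers part of an exon of a non-coding HLA-DMA transcript on the other strand. The BRD3 stretch, chr9:134068027-134068276 on the minus strand, lies within an intron of a longer BRD3 transcript. Capitals mark GC boxes (GGGCGG, searched on both strands, overlapping matches merged).

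BRD2 promoter: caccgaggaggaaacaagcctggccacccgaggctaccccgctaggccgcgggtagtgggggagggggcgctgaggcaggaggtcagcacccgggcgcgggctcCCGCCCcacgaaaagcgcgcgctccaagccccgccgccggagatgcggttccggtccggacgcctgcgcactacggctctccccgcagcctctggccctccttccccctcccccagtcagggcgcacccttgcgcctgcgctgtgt

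BRD3 promoter: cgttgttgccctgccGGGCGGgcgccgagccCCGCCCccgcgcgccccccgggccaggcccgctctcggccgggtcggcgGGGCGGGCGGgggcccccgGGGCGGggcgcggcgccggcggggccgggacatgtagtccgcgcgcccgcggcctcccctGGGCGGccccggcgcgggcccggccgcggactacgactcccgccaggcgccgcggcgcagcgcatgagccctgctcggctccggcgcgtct

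The BRD2 stretch held 1 GC box and the BRD3 stretch 6. A GC box was present in 42.6% of the 35116 RefSeq promoter stretches of the same length. The BRD3 stretch had 86.8% G and C with 48 CpG dinucleotides, more CpG than in 99.7% of all stretches. The BRD2 stretch had 74% G and C with 27 CpG. Neither held an E-box (CACGTG, in 6.34% of stretches), a TATA box (TATAAA, in 10.7%) or a CCAAT box (CCAAT, in 32.0%). The 250 bases before the BRDT start held 2 GC boxes, 1 E-box, 1 CCAAT box and 1 TATA box, the last 30 bases before the start, in 60% G and C. These matches describe the letters and are not evidence of binding.

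The table gives FPKM, fragments counted per length of exon and per size of the library, on a median-ratio scale in which the typical gene is level across libraries. The FPKM steps gave back whole reads. Reads on genes numbered 19304961 and 19099426 in the controls, against 12326080 and 12828928 with GNE-987, and mitochondrial genes took 3.78% and 4.57% of them in the controls, against 15.7% and 15.3%. Testing was limited to 16668 genes that averaged 0.5 FPKM or more. Of these, 58.5% passed in limma, which required an unadjusted P below 0.05 together with a fold above 2 or below 0.5, 33.6% higher and 24.9% lower with GNE-987. That split of 5602 higher and 4148 lower depended on the scaling. It was 4235 and 5464 after quantile normalization, 4464 and 6096 per reads on nuclear genes, 4168 and 6644 per total of reads on genes, and 3004 and 9694 per GAPDH. Of the 5602 higher calls 2812 held under all 5 scalings, and of the 4148 lower calls 4147 did. Each alternative moved the median gene down, and holding under all 5 scalings is therefore no mark of a particular lower call. GAPDH, a glycolytic enzyme often used as a reference, went from 398 and 432 FPKM in the controls to 1501 and 1499 FPKM. Because a call was made for more than 1 gene in 2, each gene is set beside these shares and beside the median of all tested genes. In bulk RNA, fewer cells of a type and less RNA per cell cannot be told apart.

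The label of the cells was checked against lineage markers. In the controls, the promyelocyte granule genes ELANE and CTSG were at 0 and MPO was at 0.0246 and 0 FPKM, while GATA1, the erythroid transcription factor, was at 124 and 122 FPKM. The 10 promyelocyte markers summed to 12.9 and 11.2 FPKM in the controls and 39.0 and 37.3 FPKM with GNE-987. The 13 erythroid markers summed to 720 and 715 FPKM against 1049 and 926 FPKM. In the deposited scaling, the FPKM of all genes also summed to more in both GNE-987 libraries. In proportion, that rise was larger than the erythroid one and close to the promyelocyte one. The sums are therefore no measure of the share of either list in the RNA. Other genes of the promyelocyte list were present in the controls, with AZU1 at 2.07 and 2.10 FPKM, LYZ at 2.02 and 1.59 FPKM, PRTN3 at 0.341 and 0.710 FPKM and SPI1 at 7.52 and 5.68 FPKM. Of the erythroid list, KLF1 was at 85.2 and 85.9 FPKM and HBZ at 32.4 and 22.4 FPKM in the controls. The lowest of that list was HBE1, at 0.181 and 0.0941 FPKM. Because the promyelocyte list was mixed and 3 of its granule genes were at or near 0, the cells are called NB4-labelled. With GNE-987, MPO was at 11.8 and 11.3 FPKM, and CEBPE went from 0.0559 and 0.116 to 1.46 and 2.70 FPKM. Both reached the level for testing only through the GNE-987 libraries, so no count of calls is drawn from this list. Of 12 tested erythroid markers, 6 (50%) were called higher beside 33.6% of all tested genes, and 4 (33.3%) lower beside 24.9%. The higher calls fell to 3 without either GNE-987 library and to 0 per GAPDH. They were led by the globins HBG2 and HBA1, which each have a near-identical copy, so their values are uncertain, and HBG2 lost its call without either GNE-987 library. The lower calls were led by GATA1 (15.1 and 12.5 FPKM with GNE-987) and EPOR, the erythropoietin receptor. These markers moved with the treatment, and their part in the BET gene values was not tested.

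BRD2 had the highest level of the 3 genes in every library. It was at 34.4 and 36.5 FPKM in the controls, and GNE-987 libraries held 119.6 and 120.1 FPKM. The groups did not overlap, and the GNE-987 libraries lay close together. The mean went from 35.4 ± 1.45 to 119.9 ± 0.411 FPKM (SD, n = 2 per group), a 3.38-fold difference. On the log2(FPKM + 0.1) scale, which understates the change of low genes, the difference was 1.76 (SE 0.0471, 95% confidence interval 1.62 to 1.89), with an adjusted p of 0.000152 in limma over all tested genes. BRD2 was the 1 of these 3 genes called higher, a call shared by 33.6% of tested genes, and 72.3% of tested genes had a lower log2 fold change.

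The reads behind these values were 5812 and 5916 in the controls and 7334 and 7780 with GNE-987, so BRD2 had more reads in the smaller libraries. As a share of reads on genes, in RPM, this was 301 and 310 against 595 and 606. The BRD2 reads were recovered at a searched length of 7337 bases, beside a GENCODE exon length of 8995 bases. By FPKM within each library, BRD2 stood at rank 1054 and 955 of the 16668 tested genes in the controls and at rank 445 and 443 with GNE-987. A rank within a library does not depend on how libraries are scaled against each other, although it depends on the other genes.

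BRD3 moved the other way in the deposited values. It was at 3.69 and 3.28 FPKM in the controls and the GNE-987 libraries held 1.77 and 1.83 FPKM, without overlap. The mean went from 3.48 ± 0.289 to 1.80 ± 0.0387 FPKM (SD, n = 2 per group), 1.93-fold lower. The log2 difference was -0.91 (SE 0.113, 95% confidence interval -1.23 to -0.59), with an adjusted p of 0.00312 in limma. BRD3 therefore passed the P threshold and missed the fold threshold, which 24.9% of tested genes passed in this direction. Of the tested genes, 28.3% had a lower log2 fold change.

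BRD3 rested on fewer reads, 584 and 499 in the controls and 102 and 111 with GNE-987. As RPM, these were 30.3 and 26.1 against 8.28 and 8.65. The BRD3 reads were recovered at a searched length of 6876 bases, beside 6885 bases in GENCODE. The rank of BRD3 among tested genes went from 7116 and 7626 in the controls to 10845 and 10697 with GNE-987. BRD3 thus stood lower in the order of genes in both GNE-987 libraries, while BRD2 stood higher.

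BRDT had 0 reads in all 4 libraries and was not tested. A count of 0 has a 95% Poisson interval that ends at 3.69 reads. A count of 3 reads would be 0.0281 and 0.0293 FPKM in the controls and 0.0774 and 0.0733 FPKM with GNE-987. The interval covers counting error only. The testis form of the family was therefore not detectable at this depth in either group.

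**Figure D1:**
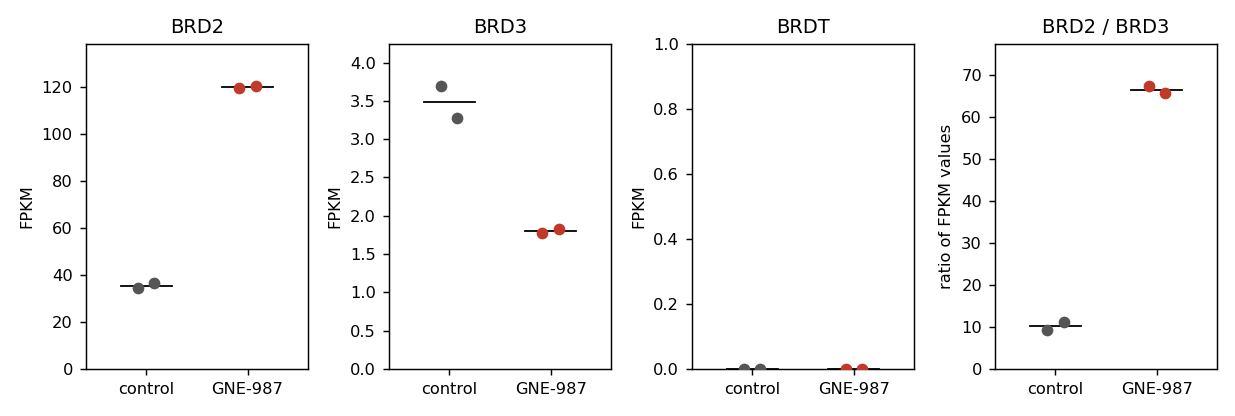
FPKM of BRD2, BRD3 and BRDT and the ratio of BRD2 to BRD3 FPKM, on linear axes from 0, with each point 1 library, 2 per group, and each line the group mean. BRD2 sits at 34.4 and 36.5 FPKM in the controls and 119.6 and 120.1 FPKM with GNE-987 in the deposited scaling. After scaling to GAPDH its log2 difference is -0.10 (95% confidence interval -0.24 to 0.048 in limma), which includes no difference. BRD3 sits at 3.69 and 3.28 against 1.77 and 1.83 FPKM, BRDT at 0 throughout, and the ratio at 9.33 and 11.1 against 67.4 and 65.7.

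The scaling decided the call for both genes. For BRD2, the log2 difference was 1.16 per reads on nuclear genes and 1.09 after quantile normalization, both called higher, 0.97 per total of reads on genes, under the fold threshold, and -0.10 per GAPDH, with an adjusted p of 0.153 in limma. For BRD3, it was -1.25 after quantile normalization, -1.47 per reads on nuclear genes, -1.64 per total of reads and -2.58 per GAPDH, and BRD3 was called lower in each. The scalings moved the median of all tested genes from 0.17 in the deposited values to -0.24, -0.39, -0.56 and -1.53 after quantile, nuclear read, total read and GAPDH scaling. Relative to that median, BRD2 was higher by 1.33 to 1.58 and BRD3 differed by -1.09 to -1.003 on the log2 scale under all 5 scalings. Scaling to GAPDH, nuclear reads or total reads applies a single factor per library, which moves a gene and the median together. These scalings are therefore no separate check of that distance. Quantile normalization could change it, and gave 1.33 for BRD2 and -1.003 for BRD3.

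**Figure D2:**
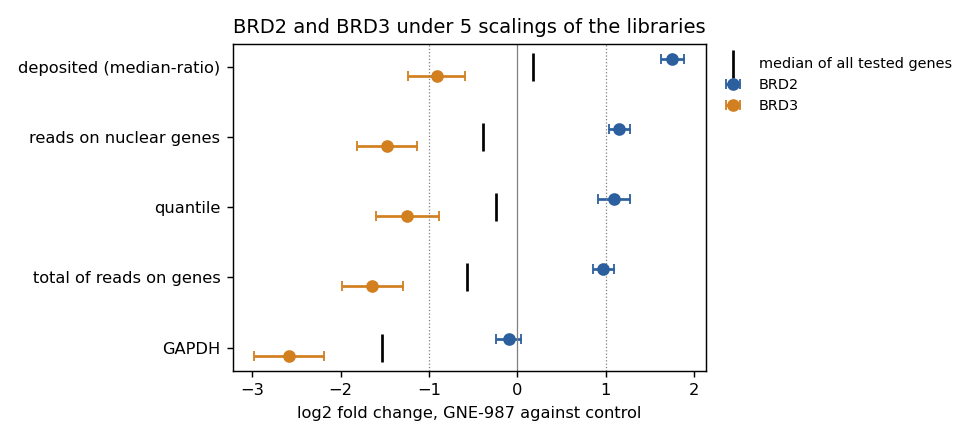
Log2 fold change between GNE-987 and control libraries for BRD2 and BRD3 under 5 scalings of the 4 libraries, with 95% confidence intervals from limma, dotted lines at the fold threshold and black ticks at the median of all tested genes. BRD2 runs from 1.76 in the deposited scaling to -0.10 per GAPDH, where its interval includes no difference, and BRD3 from -0.91 to -2.58. BRD2 lies to the right and BRD3 to the left of the median tick in each row. In every row but quantile, a single factor per library moves gene and tick together, so those rows are no separate check.

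The ratio of both genes within a library does not change with any single factor per library. BRD2 FPKM exceeded BRD3 FPKM by 9.33 and 11.1 times in the controls and by 67.4 and 65.7 times with GNE-987. The mean ratio was 10.2 ± 1.26 against 66.5 ± 1.20 (SD, n = 2 per group), and the groups did not overlap. The difference of the log2 ratios was 2.71, or 6.54-fold, with p = 0.333 in a two-sided exact permutation test. That is the smallest p that 2 against 2 libraries can give. Quantile normalization, which applies no single factor, gave 2.34, or 5.06-fold, on the log2(FPKM + 0.1) scale. The deposited values gave 2.67 with the same 0.1 added.

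Genes on the other strand share sequence with both loci, and the strand setting of the counting is not given. BRD3OS, on the strand opposite to BRD3, overlaps it by 4362 bases, and its reads were 79 and 95 in the controls and 4 and 7 with GNE-987. A long non-coding RNA within BRD3, ENSG00000235138, had 22 and 20 against 2 and 1 reads. Both lay under the level needed for testing. Without a known strand setting, reads from either strand of the shared stretches cannot be told apart here.

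HLA-DMA, which encodes a chain of the chaperone that loads peptides on HLA class II, overlaps the start of BRD2 by 501 bases on the other strand. It had 5 and 4 reads in the controls and 36 and 39 with GNE-987. It reached the level for testing only through the GNE-987 libraries, so its values are given as a description. Its reads were few beside those of BRD2. The class II genes HLA-DMB and HLA-DOA, within 50 kb of BRD2, had 0 reads in both controls, and 14 and 11 and 6 and 12 with GNE-987, each under the level for testing. Of the genes near BRD3, VAV2, a guanine nucleotide exchange factor, had 96 and 130 against 24 and 25 reads (log2 difference -0.69, adjusted p 0.0683 in limma), and the pseudogene ARF4P1 had 0 reads in 3 libraries and 1 in the other. Beside the silent BRDT, TGFBR3, a co-receptor for TGF-beta, had 515 and 524 against 165 and 181 reads (log2 difference -0.19, adjusted p 0.167 in limma), and EPHX4 had 0. VAV2 was called lower after quantile (-2.35), nuclear-read (-1.17), total-read (-1.31) and GAPDH (-2.03) scaling. TGFBR3 was called lower only per GAPDH (-1.89).

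The 5 protein-coding genes nearest to each BET gene over the 4 libraries were found by Euclidean distance of log2(FPKM + 0.1), a description over 4 points that share the same scaling. For BRD2 they were NOP53 (distance 0.147), NCOA4 (0.210), DNAJB1 (0.224), ACADVL (0.257) and DRAP1 (0.286). NOP53, a ribosome assembly factor, was at 33.5 and 34.9 FPKM in the controls and 113.9 and 111.5 FPKM with GNE-987. DNAJB1, a heat shock co-chaperone, was at 35.9 and 34.4 against 130.7 and 133.4 FPKM. For BRD3 they were PPOX (0.119), PML (0.125), VAPB (0.130), ZNRF2 (0.139) and C5orf34 (0.144). PPOX, a heme synthesis enzyme, was at 3.50 and 3.19 against 1.69 and 1.89 FPKM. PML, the nuclear body gene that is fused to RARA in promyelocytic leukemia, was at 3.70 and 3.39 against 1.90 and 1.74 FPKM.

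The bromodomain also occurs outside the BET family, in chromatin remodelers, acetyltransferases and transcription cofactors. Of 38 such genes 37 were tested, and 2 (5.41%) were called higher and 13 (35.1%) lower, beside 33.6% and 24.9% of all tested genes. The median log2 difference was -0.57, beside 0.17 for all tested genes. The 13 lower calls held under all 5 scalings, as 4147 of 4148 lower calls over all genes did, and neither of the 2 higher calls did. The lowest were ZMYND8 (12.6 and 13.0 against 1.22 and 1.40 FPKM, log2 difference -3.20) and ZMYND11 (3.19 and 3.15 against 0.429 and 0.641 FPKM, -2.38), both readers of modified histones. The 2 called higher were TRIM28, a corepressor (205.5 and 195.6 against 801 and 818 FPKM, 2.01), and TRIM24 (8.26 and 8.65 against 29.2 and 30.6 FPKM, 1.81, or -0.03 per GAPDH). BRD2 lay next below these in the order of all bromodomain genes tested. BRD3 (-0.91) lay below the median of the list but above all 13 genes called lower.

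**Figure D3:**
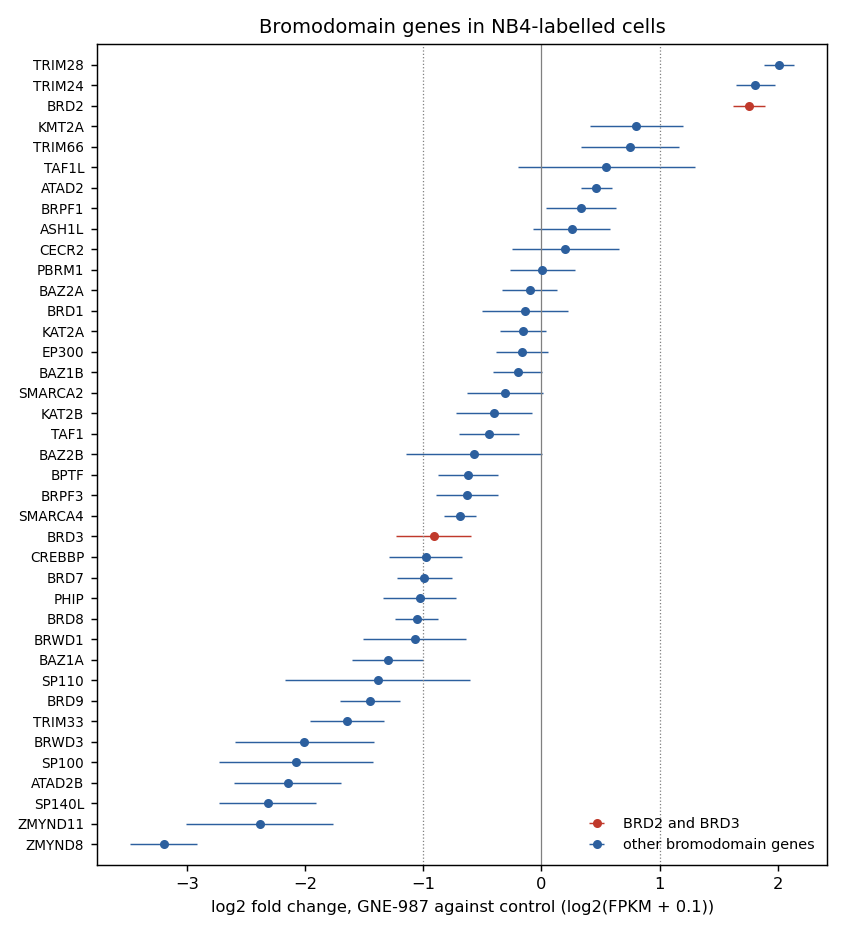
Log2 fold change between GNE-987 and control libraries in the deposited scaling for BRD2, BRD3 (red) and 37 other bromodomain genes (blue), with 95% confidence intervals from limma and dotted lines at the fold threshold. TRIM28 (2.01), TRIM24 (1.81) and BRD2 (1.76) lie past the upper line, and 13 genes down to ZMYND8 (-3.20) lie past the lower line. Per GAPDH, TRIM24 (-0.03) and BRD2 (-0.10) show little difference between the groups.

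BET proteins work with extraterminal-domain partners, with the elongation kinase P-TEFb and with Mediator. Of 14 genes for these partners all were tested, and 1 (7.14%) was called higher and 5 (35.7%) lower, beside 33.6% and 24.9% of all tested genes. The median log2 difference was -0.49, beside 0.17. The highest was JMJD6, an extraterminal-domain partner (8.69 and 9.11 against 60.5 and 54.6 FPKM, log2 difference 2.68). The lowest were the Mediator genes MED1 (18.6 and 23.6 against 3.80 and 3.28 FPKM, -2.54) and MED12 (12.6 and 13.7 against 3.08 and 2.75 FPKM, -2.13). The 5 lower calls also took in NSD2, BICRA and CCNT2, and JMJD6 lost its call per GAPDH (0.83).

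Of 6 genes known to respond to BET inhibitors in blood cells, 4 were tested. MYC, the growth transcription factor, was at 91.5 and 90.4 FPKM in the controls and 40.3 and 39.5 FPKM with GNE-987 (log2 difference -1.19, adjusted p 0.000188 in limma), and was called lower. SERPINI1 (3.68 and 3.44 against 17.8 and 16.7 FPKM, 2.24) and ZCCHC24 (1.76 and 1.81 against 11.0 and 11.0 FPKM, 2.56) were called higher, calls that ended per GAPDH. HEXIM1, an inhibitor of P-TEFb, was at 22.9 and 25.5 against 29.4 and 31.5 FPKM (0.33), did not pass the fold threshold, and took the opposite sign per total of reads, nuclear reads and GAPDH. CCR2 was at 0 in all libraries, and CD180 was at 0 in the controls and 0.106 and 0.0600 FPKM with GNE-987.

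The ligase to which GNE-987 binds is built from VHL, the elongins B and C (ELOB, ELOC), CUL2 and RBX1, and is activated by NEDD8 and served by the enzymes UBE2R2 and CDC34. Of these 8 genes, 3 (37.5%) were called higher and 3 (37.5%) lower, beside 33.6% and 24.9% of all tested genes, with a median log2 difference of 0.27 beside 0.17. The share called higher was near that of all genes. VHL, the subunit that holds the ligand, was at 22.4 and 23.3 FPKM in the controls and 8.15 and 7.23 FPKM with GNE-987 (-1.56). CUL2, the scaffold, was at 9.35 and 10.4 against 2.05 and 1.61 FPKM (-2.38), and UBE2R2 at 12.5 and 12.003 against 5.52 and 5.53 FPKM (-1.13). These 3 were the lower calls. ELOB (1.73), NEDD8 (1.18) and ELOC (1.02) were called higher in the deposited values and took the opposite sign per GAPDH. ELOB also lost its call after quantile and total-read scaling, ELOC after quantile, total-read and nuclear-read scaling, and NEDD8 after total-read and nuclear-read scaling. The higher calls fell to 1 without control replicate 2 and to 2 without either GNE-987 library, NEDD8 being lost in all 3 cases and ELOC in the first. RBX1 (0.76) and CDC34 (-0.22) did not pass the fold threshold, and RBX1 also turned sign per total of reads.

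**Figure D4:**
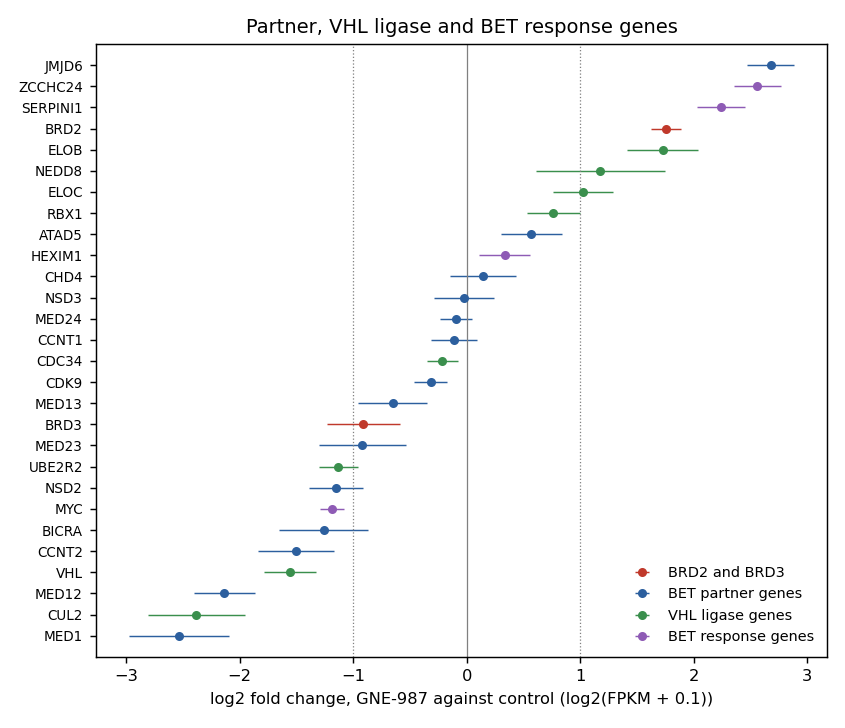
Log2 fold change between GNE-987 and control libraries in the deposited scaling for BRD2 and BRD3 (red), 14 BET partner genes (blue), 8 VHL ligase genes (green) and 4 BET response genes (purple), with 95% confidence intervals from limma and dotted lines at the fold threshold. JMJD6 (2.68) lies at one end and MED1 (-2.54) and CUL2 (-2.38) at the other. Per GAPDH, HEXIM1, RBX1, ELOC and NEDD8 turn sign, and BRD2 (-0.10) and ELOB (-0.13) do so only slightly.

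BRDT was set beside 17 genes of the germline, of which 8 were at 0 in every library. H1-6, the testis linker histone, was at 0.0605 and 0.252 FPKM in the controls and 34.7 and 40.9 FPKM with GNE-987. It reached the level for testing only through the GNE-987 libraries, so these values are a description. TEX14, a gene of the bridges between germ cells, was at 1.39 and 1.48 against 5.95 and 6.36 FPKM (2.03), a call that ended per GAPDH. The protamines PRM1 and PRM2 and the transition proteins TNP1 and TNP2, which replace histones in maturing sperm, were at 0 in all 4 libraries, as BRDT was.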

How the data were processed

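Libraries were made from total RNA with a TruSeq RNA kit. The submitters' processing notes name HISAT2 2.0.5 and the hg38 build. The deposited values are FPKM per gene, made by the authors. Their median-ratio size factors were equal in all 4 libraries (1.007953 over 17391 genes). The counting tool and its strand setting are not given in the sources used here. Dose and time were taken from the study's text. Of 58735 genes, 99.1% of IDs matched GENCODE release 44, which gave symbols and positions.

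Whole reads were recovered from the FPKM steps (within 0.01 read or a relative 2e-07). At GENCODE exon lengths, 53.0% of the 32895 genes above 0 came out whole, and all did at a searched length. Groups were compared with limma 3.58.1 (R 4.3.3, intensity trend) on log2(FPKM + 0.1) for genes that averaged 0.5 FPKM or more. Calls needed an unadjusted P under 0.05 and a fold over 2 or under 0.5, as in the study. P-values were adjusted by Benjamini-Hochberg over 16668 genes. The script was tested on simulated data in which few genes changed, equally in both directions. That test does not bear on the choice of scaling. Ratios were compared by an exact permutation test.

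The members and lists were chosen with earlier results of these data known. Named genes were the BET genes, genes overlapping or within 50 kb of them, GAPDH, the 2 most changed called genes each way of a list, every gene of a list of at most 8, and the 5 nearest profiles. Genes at 0 among markers, AZU1, LYZ, PRTN3, SPI1, KLF1, HBZ, HBE1, NSD2, BICRA and CCNT2, were named after their values were seen. Alternatives were other pseudocounts, filters, scalings, tests, a replicate block and leaving out each library. Scaling to reads on nuclear genes, and quantile normalization for the ratio, were added after seeing the data.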

Additional observations from a re-analysis of the deposited data

How the results depend on the processing

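Both calls depended on the scaling. For BRD2, the log2 difference of 1.76 became 0.98 with limma-voom on recovered reads and 0.97 per total of reads, under the fold threshold, and -0.10 per GAPDH. For BRD3, -0.91 became -1.73 with limma-voom, -1.25 after quantile normalization, -2.58 per GAPDH, -1.47 per reads on nuclear genes and -1.64 per total of reads, each past the fold threshold. Other bromodomain genes called went from 15 to 24 with limma-voom, 33 per GAPDH and 24 per total of reads. The lower calls among them went from 13 to 22, 33 and 22. Partner genes called went from 6 to 13 per GAPDH, all 13 lower. Calls among all 16668 tested genes went from 9750 to 11088 with limma-voom, 12698 per GAPDH and 10812 per total of reads. The lower calls among all genes went from 4148 to 6776, 9694 and 6644 in the same order. Scaling to GAPDH or to a read total applies 1 factor per library and so moves all genes together, which quantile normalization does not. Per GAPDH, the sign turned for TRIM24 (-0.031), HEXIM1 (-1.51), RBX1 (-1.08), ELOB (-0.13), ELOC (-0.81), NEDD8 (-0.65), NOP53 (-0.13), NCOA4 (-0.30), ACADVL (-0.35) and DRAP1 (-0.34). HEXIM1 also turned with limma-voom (-0.45), per nuclear reads (-0.26) and per total of reads (-0.45), RBX1 with limma-voom (-0.018) and per total of reads (-0.018), and GAPDH after quantile normalization (-0.11).

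Leaving out each library in turn gave 1.71 to 1.80 for BRD2, -0.99 to -0.83 for BRD3, 2.58 to 2.83 for the log2 ratio, 13 to 16 other bromodomain calls, 6 to 7 partner calls and 9006 to 9172 calls among all genes. The lone library was then assumed to vary like the other group. Same-numbered libraries shared only a number (correlation of deviations 0.00537). With the number as a replicate block, 9853 genes were called beside 9750, and BRD2 (1.76) stayed called and BRD3 (-0.91) stayed under the fold threshold. The edgeR and DESeq2 alternatives had been planned for a table of counts, and they were not run on the recovered reads. BRDT, at 0 reads, gave no value under any alternative. With 2 libraries per group, precision is limited, and BRD3 rests on 102 and 111 reads in the GNE-987 libraries.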
